A study of Mus musculus with 14 samples.

Results

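The small proline-rich (Sprr) genes were followed across the estrous cycle in the mouse uterus. The 10 symbols Sprr1a, Sprr2a1, Sprr2a2, Sprr2b, Sprr2d, Sprr2e, Sprr2f, Sprr2g, Sprr2h and Sprr2k were taken by name from a deposited expression table of 31274 gene symbols, and all 10 were found in it. Whole uteri of FVB/N mice at 2 months of age were used, and the mice were intact and had no treatment. They were 3 libraries labelled HIF2A cKO at estrus, 3 WT libraries at estrus, 4 labelled HIF2A cKO at diestrus and 4 WT libraries at diestrus. Epas1 encodes HIF2A, a transcription factor regulated by oxygen, and the labels name neither the Cre line nor the deleted exons of the conditional knockout. Whether the libraries of a group came from separate animals is not stated, and the p-values then cover the spread between libraries alone, which may be technical.

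SPRR proteins are small precursors rich in proline and glutamine that transglutaminases cross-link into the cornified envelope of stratified epithelia. Their genes lie side by side in the epidermal differentiation complex, next to those of loricrin, involucrin, the filaggrins and many S100 proteins. In the mouse uterus, Sprr2 genes are known as estrogen-induced genes of the luminal epithelium. Estrus follows the preovulatory rise of estrogen, and at diestrus progesterone dominates.

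In RefSeq on GRCm38.p6, the assembly of the mm10 build that the submitters' notes name, the 10 genes lie on chromosome 3. They extend from the start of Sprr2a1 at 92215835 to the far end of Sprr1a at 92485881, a span of 270.0 kb. Sprr2f, which carried most of the signal, occupies 92365187 to 92366442 on the plus strand. Sprr2e starts 13 kb before it, Sprr2g is 8.7 kb after it, and Sprr1a runs in the opposite direction. RefSeq annotates Sprr2g as a transcribed pseudogene and the other 9 as protein-coding. The copies differ in how far their reads can be told apart. Of the 560 stretches of 50 bases in the GENCODE M21 transcript of Sprr2f, 4 also occurred in another gene, or 0.714%. The share was 96.3% in Sprr2a1 and 96.5% in Sprr2a2, which are near copies of each other. It was 14.1% in Sprr2b, 10.2% in Sprr2e and 4.27% in Sprr2d, and it was 0% in Sprr1a, Sprr2g, Sprr2h and Sprr2k. No source used here gives the read length.

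The 250 bases before the start were held for 9 of the 10 genes in the RefSeq promoter table (GRCm38.p6), all but Sprr2g. These sequences come from the reference mouse strain, not from FVB/N. Those of the 4 Sprr genes that rose at estrus, of their low neighbour Sprr2e and of the nearly silent Sprr2h are shown 5′ to 3′, because they share short elements while the levels of the genes differ widely. They are chr3:92364937-92365186 (Sprr2f), chr3:92316455-92316704 (Sprr2b), chr3:92338890-92339139 (Sprr2d), chr3:92351893-92352142 (Sprr2e) and chr3:92385435-92385684 (Sprr2h) on the plus strand, and chr3:92485882-92486131 (Sprr1a) on the minus strand. Capitals mark matches to the AP-1 element TGANTCA, the octamer ATTTGCAT and the TATA box TATAAA.
Sprr2f: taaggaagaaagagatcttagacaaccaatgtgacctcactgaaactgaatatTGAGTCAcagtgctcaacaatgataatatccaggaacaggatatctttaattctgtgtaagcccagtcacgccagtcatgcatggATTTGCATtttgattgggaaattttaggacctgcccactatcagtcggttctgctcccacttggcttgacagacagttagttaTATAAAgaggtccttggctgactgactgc
Sprr2b: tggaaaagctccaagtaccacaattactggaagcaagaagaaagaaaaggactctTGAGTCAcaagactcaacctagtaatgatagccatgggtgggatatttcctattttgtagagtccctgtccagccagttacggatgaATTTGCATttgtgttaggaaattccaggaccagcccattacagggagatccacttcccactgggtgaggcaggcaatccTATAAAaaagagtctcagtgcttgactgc
Sprr2d: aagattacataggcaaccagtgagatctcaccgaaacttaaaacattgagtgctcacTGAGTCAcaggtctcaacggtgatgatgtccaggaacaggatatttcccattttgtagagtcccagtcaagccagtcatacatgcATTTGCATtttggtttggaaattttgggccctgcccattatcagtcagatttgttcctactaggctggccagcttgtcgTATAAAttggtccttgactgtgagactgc
Sprr2e: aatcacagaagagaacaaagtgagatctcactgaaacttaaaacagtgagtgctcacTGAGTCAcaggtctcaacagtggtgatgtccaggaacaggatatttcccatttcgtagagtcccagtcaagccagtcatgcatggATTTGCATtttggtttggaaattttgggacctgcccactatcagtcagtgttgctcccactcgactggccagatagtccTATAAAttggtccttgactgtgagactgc
Sprr2h: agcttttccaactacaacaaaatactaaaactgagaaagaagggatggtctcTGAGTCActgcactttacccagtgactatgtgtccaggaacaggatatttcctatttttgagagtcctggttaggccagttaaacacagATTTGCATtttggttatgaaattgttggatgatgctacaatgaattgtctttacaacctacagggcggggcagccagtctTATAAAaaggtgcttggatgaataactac
Sprr1a: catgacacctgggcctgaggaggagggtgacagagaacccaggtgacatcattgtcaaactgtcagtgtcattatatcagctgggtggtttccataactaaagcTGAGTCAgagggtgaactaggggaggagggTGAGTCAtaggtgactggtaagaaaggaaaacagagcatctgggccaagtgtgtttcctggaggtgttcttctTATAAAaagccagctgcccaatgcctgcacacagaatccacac
The arrangement was nearly the same in the Sprr2 genes shown. In Sprr2f the AP-1 match began at position -197, the octamer at position -112 and the TATA box at position -29, counted back from the base before the start. In Sprr2e these positions were -193, -108 and -29, and in Sprr2h they were -198, -109 and -29. Sprr1a had AP-1 matches at -146 and -116 and a TATA box at -43, and no octamer match in this window.

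Searched on both strands, AP-1 matches were present in 7 of the 9 promoters, against 6.75% of all 32851 promoter stretches of this length. TATA box matches were present in 7 of 9, against 12.4% of all stretches. Octamer matches were present in 6 of 9, against 1.6% of all, and this motif was added after the sequences were seen. The full estrogen response element, the arms GGTCA and TGACC with NNN between them, which is in 0.0639% of all stretches, matched in 0 of 9. The single arm GGTCA, which is in 35.2% of all stretches, matched in Sprr2f alone, at position -219 on the opposite strand. The hypoxia response core ACGTG matched in 0 of 9, against 16.6% of all stretches. The members are related copies and not independent cases. The sequence of Sprr2e was 73.5% identical to that of Sprr2f and 89.3% identical to that of Sprr2d over these 250 bases, and Sprr2a1 and Sprr2a2 were 100% identical. The 250 bases before the RefSeq starts of Sprr2a1 and Sprr2a2 matched neither AP-1, nor the octamer, nor the TATA box. In GENCODE M21 Sprr2a1 has a transcript of 3003 bases, and Sprr2a2 has transcripts of 722 and 2867, against 609 in Sprr2f. Only these windows were searched, and they need not correspond to those of the shorter copies.

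The values were FPKM, fragments scaled to transcript length and to the size of the library, so levels can be compared between genes. They summed to between 437879 and 497688 per library. Depth itself is unknown, and the steps between low values showed that the deepest library had 1.89 times the depth of the shallowest. Epas1 itself gave no lower value under the HIF2A cKO label. It stood at 41.2 ± 4.01 FPKM in those and 32.9 ± 1.56 in WT at estrus (SD, n = 3 each), and at 39.5 ± 4.44 in those and 34.8 ± 5.82 in WT at diestrus (SD, n = 4 each). A gene-level FPKM can miss a deletion of part of a gene, so this neither checks nor refutes the labels, and all directions between genotypes are those of the labels. The nuclear ribosomal precursor Rn45s reached 1890.5 FPKM in HIF2A cKO diestrus replicate 4 and 819 in HIF2A cKO estrus replicate 1, against 208 to 578 in the other libraries. Its part in the results was not tested, and each count of Sprr genes called below was the same without these 2 libraries.

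Sprr2f was by far the most abundant member. It had 2699, 2122 and 3318 FPKM in the HIF2A cKO estrus libraries, against 587, 582, 474 and 330.2 FPKM in the HIF2A cKO diestrus libraries. It had 3865, 2322 and 3059.5 FPKM in the WT estrus libraries, against 536, 661, 183 and 309 FPKM in the WT diestrus libraries. Each estrus library was above each diestrus library, in both genotypes. Its rank among all genes of a library may be too high, since abundant genes such as Eef1a1 were listed at 0 throughout a group. With this limit, Sprr2f was between 6th and 9th at estrus in HIF2A cKO and between 5th and 7th in WT. At diestrus it was between 100th and 183rd in HIF2A cKO and between 97th and 339th in WT. Its share of the summed FPKM of the 10 genes was 96.7% to 98.2% in HIF2A cKO estrus and 98.4% to 98.9% in WT estrus libraries, and 95.1% to 97.0% in HIF2A cKO diestrus and 96.9% to 98% in WT diestrus libraries.

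**Figure D1:**
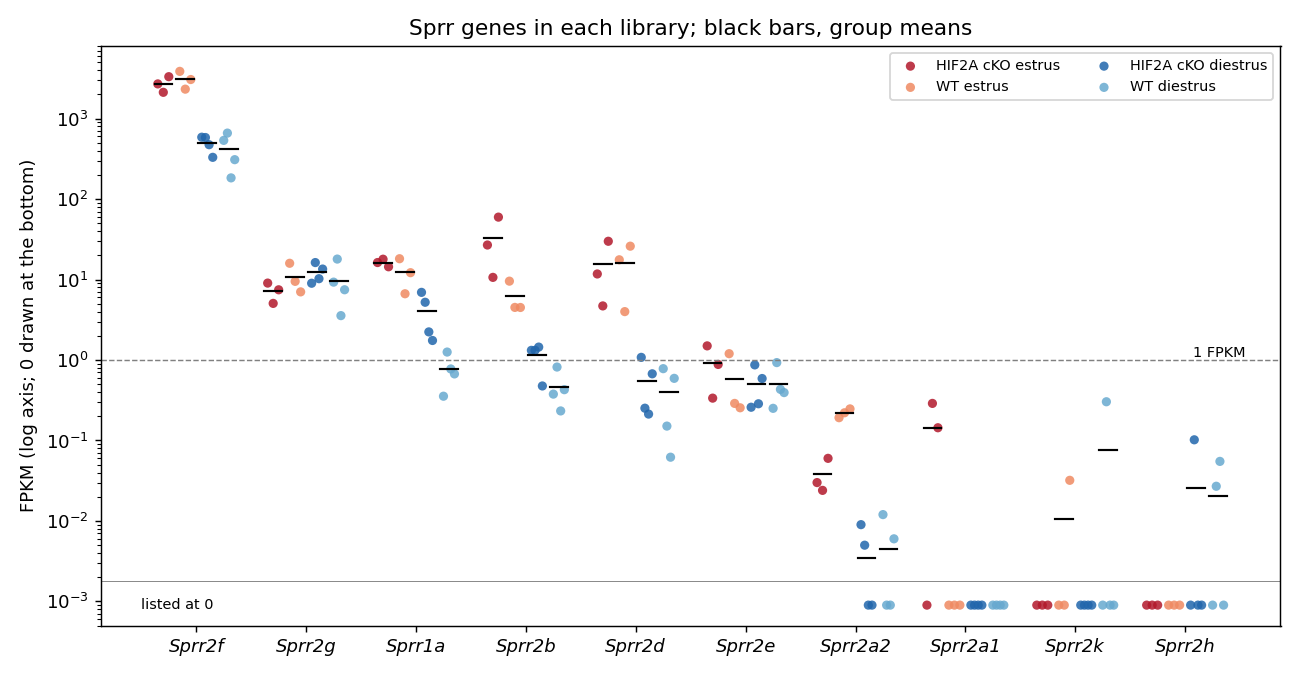
FPKM (log axis) of the 10 Sprr genes in each of the 14 libraries, coloured by group, with group means as black bars and values of 0 drawn at the bottom. Sprr2f lies between 183 and 3865 FPKM in all libraries, while Sprr2a1, Sprr2k and Sprr2h are listed at 0 in most.

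The other genes were far lower, and their order changed with the stage. At estrus Sprr2f was followed in HIF2A cKO by Sprr2b (32.4 FPKM on average), Sprr1a (16.2), Sprr2d (15.4) and Sprr2g (7.18), and in WT by Sprr2d (15.9), Sprr1a (12.3), Sprr2g (10.8) and Sprr2b (6.19). Below Sprr2f, the ranges of neighbours in this order overlapped in each genotype. In HIF2A cKO both Sprr2b and Sprr1a lay above the whole range of Sprr2g, and in WT Sprr2g was above Sprr2b in 3 of 3 libraries. At diestrus Sprr2g came second, with 12.3 FPKM in HIF2A cKO and 9.57 in WT, and was above Sprr1a in 4 of 4 libraries of each genotype. Sprr1a was next in both genotypes. Its range did not overlap that of the fourth gene, Sprr2b, in HIF2A cKO, and did overlap that of the fourth gene, Sprr2e, in WT.

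**Figure D2:**
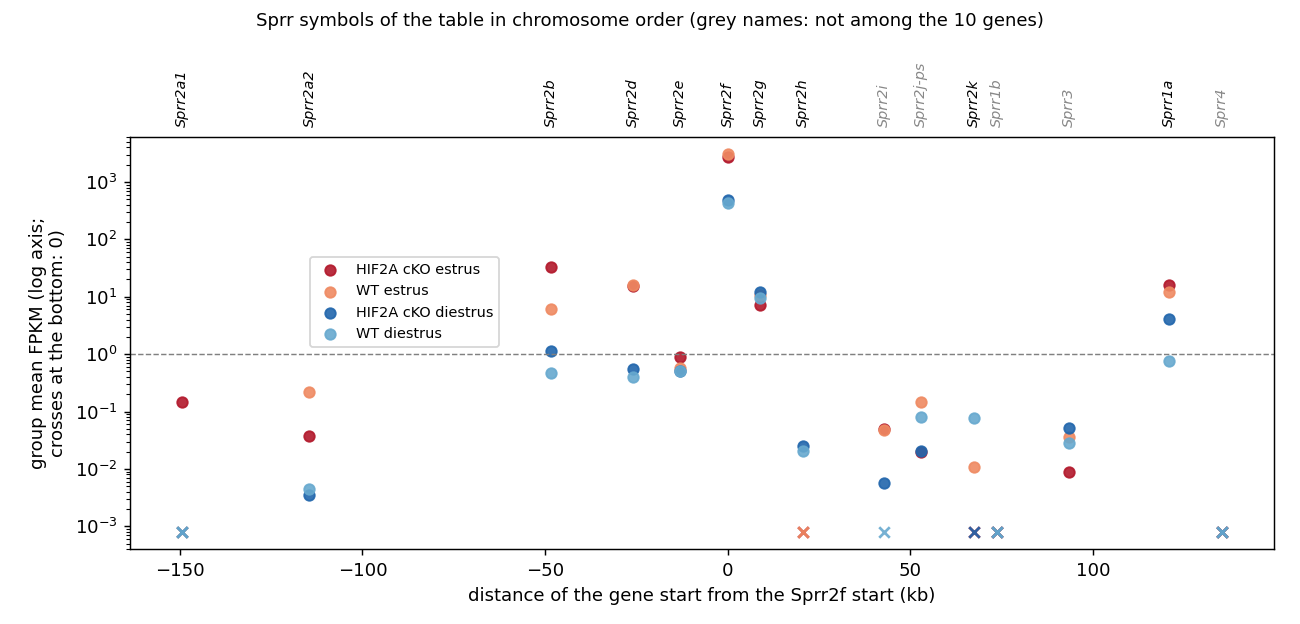
Group mean FPKM (log axis, crosses for 0) of the Sprr symbols of the table, placed by the distance of each gene's start from that of Sprr2f in kb. Sprr2f stands above its neighbours Sprr2e, 13 kb before it, and Sprr2g, 8.7 kb after it, in each group.

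For the tests, log2(FPKM + 1) was fitted across all genes that had at least 1 FPKM in at least 3 libraries, with limma and Benjamini-Hochberg adjustment over all 14278 of them, and a gene was called at an adjusted p below 0.05. Of the 10 Sprr genes, 5 passed this filter (Sprr1a, Sprr2b, Sprr2d, Sprr2f and Sprr2g). Sprr2d reached 1 FPKM in 1 diestrus library, so it passed the filter through estrus and had to differ between the stages. The same limit holds for Tgm5 and Csf3r among the genes named below. In the opposite direction it holds for Tgm1, Cxcl15, Krt5, Krt15 and Ovgp1, which passed through diestrus. The differences of all these genes and of Sprr2d between stages are given as values without a test. Counts of S100 genes include others of this kind and are also given without them. Differences are on this log2 scale and understate the change of genes at low FPKM. In these whole-tissue samples, fewer cells of a type and less RNA per cell cannot be told apart.

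The comparison of estrus with diestrus asked how the Sprr genes follow the cycle in each genotype. Sprr2f, Sprr1a, Sprr2b and Sprr2d were higher at estrus in both, and Sprr2g was called in neither. In HIF2A cKO 4 of the 5 tested genes rose and none fell, while 25.5% of all tested genes rose and 62% were called in either direction. In WT 4 of 5 rose and none fell, while 23% of all tested genes rose and 57.2% were called in either direction. Without Sprr2d, 3 of 4 rose in each genotype. Sprr2f averaged 2713 ± 598 FPKM at estrus and 493 ± 121 at diestrus in HIF2A cKO (SD, n = 3 and 4), a difference of 2.47 log2 (SE 0.378, limma adjusted p = 0.000105). In WT it averaged 3082 ± 771 at estrus and 422 ± 216 at diestrus (SD, n = 3 and 4), a difference of 3.00 log2 (SE 0.378, limma adjusted p = 3.75e-05). The ratio of the means was 5.50 in HIF2A cKO and 7.30 in WT.

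Sprr1a encodes the SPRR protein of the other subfamily tested here, best known from epidermis and from injured neurons and heart. It had 16.3, 17.9 and 14.4 FPKM in HIF2A cKO estrus libraries, against 6.93, 5.22, 2.24 and 1.75 in HIF2A cKO diestrus libraries. It had 18.1, 6.66 and 12.2 FPKM in WT estrus libraries, against 0.355, 1.26, 0.774 and 0.672 in WT diestrus libraries. The stages did not overlap in either genotype. The difference was 1.90 log2 in HIF2A cKO (SE 0.364, limma adjusted p = 0.000575) and 2.84 log2 in WT (SE 0.364, limma adjusted p = 4.14e-05).

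Sprr2b and Sprr2d, the expressed copies next upstream of Sprr2e and Sprr2f, were at most 1.45 FPKM at diestrus. Sprr2b had 26.9, 10.6 and 59.7 FPKM in HIF2A cKO estrus libraries, against 1.32, 1.32, 1.45 and 0.476 in HIF2A cKO diestrus libraries. It had 9.552, 4.51 and 4.50 FPKM in WT estrus libraries, against 0.377, 0.818, 0.233 and 0.428 in WT diestrus libraries. The stages did not overlap, and the difference was 3.68 log2 in HIF2A cKO (SE 0.429, limma adjusted p = 1.22e-05) and 2.24 log2 in WT (SE 0.429, limma adjusted p = 0.000777).

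Sprr2d had 11.7, 4.70 and 29.9 FPKM in HIF2A cKO estrus libraries, against 1.08, 0.252, 0.213 and 0.674 in HIF2A cKO diestrus libraries. It had 17.6, 4.00 and 25.98 FPKM in WT estrus libraries, against 0.781, 0.151, 0.062 and 0.592 in WT diestrus libraries. Here too the stages did not overlap, although the highest estrus library stood 6.36 times above the lowest in HIF2A cKO and 6.50 times in WT. The same ratio was 1.56 and 1.66 for Sprr2f, so the minor copy varied more between libraries of a group. The difference of Sprr2d was 3.11 log2 in HIF2A cKO (SE 0.572) and 3.32 log2 in WT (SE 0.572). It is given without a test, since Sprr2d passed the filter through estrus.

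Sprr2g did not follow the other genes. It had 9.04, 5.06 and 7.46 FPKM in HIF2A cKO estrus libraries, against 8.998, 16.3, 10.2 and 13.5 in HIF2A cKO diestrus libraries. It had 15.9, 9.50 and 7.03 FPKM in WT estrus libraries, against 9.29, 18.0, 3.56 and 7.47 in WT diestrus libraries. The stages overlapped in both genotypes. The difference was -0.69 log2 in HIF2A cKO (95% interval -1.56 to 0.17, limma adjusted p = 0.148) and 0.27 log2 in WT (95% interval -0.59 to 1.14, limma adjusted p = 0.576). With library weights, or in the HIF2A cKO libraries alone, the lower value in HIF2A cKO passed the threshold (adjusted p = 0.0317 and 0.0316). Its share of the summed Sprr FPKM was 0.217% to 0.327% in HIF2A cKO estrus and 1.49% to 3.89% in HIF2A cKO diestrus libraries, and 0.226% to 0.406% in WT estrus and 1.70% to 2.63% in WT diestrus libraries.

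**Figure D3:**
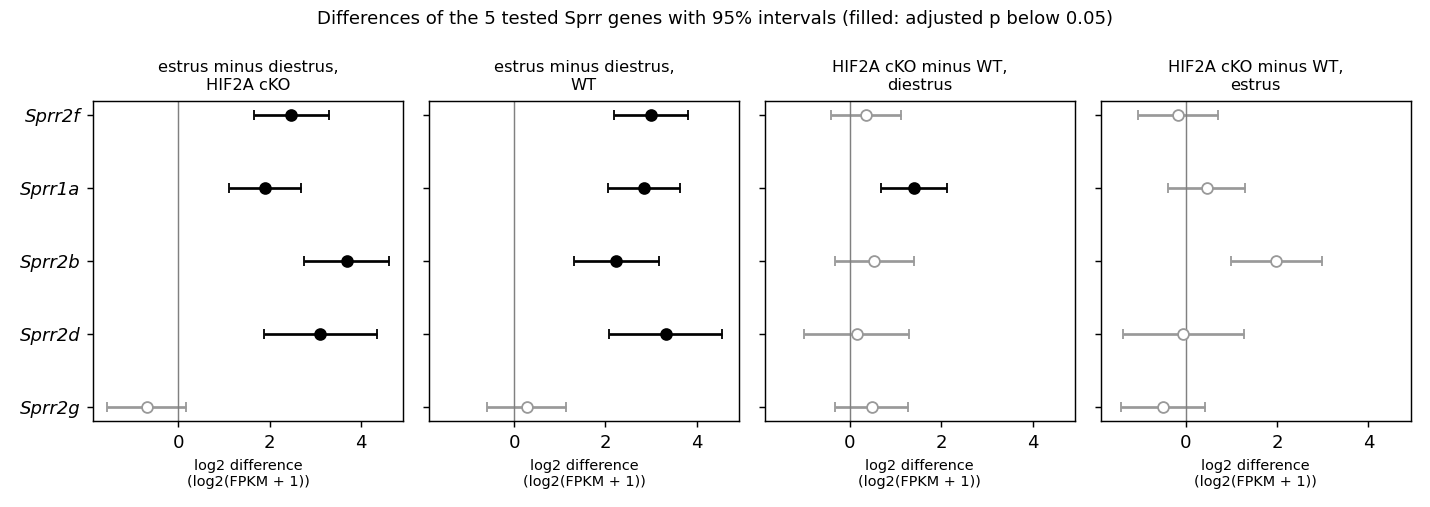
Differences on the log2(FPKM + 1) scale of the 5 tested Sprr genes with 95% intervals from limma, in 4 comparisons, filled where the adjusted p was below 0.05. Sprr2f, Sprr1a, Sprr2b and Sprr2d lie above 0 for estrus minus diestrus in both genotypes, and between genotypes Sprr1a is filled at diestrus. The direction of Sprr2d between stages was fixed by the filter.

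The comparison of genotypes at diestrus asked whether the label HIF2A cKO goes with a change of the Sprr genes in that stage. Sprr1a was higher, with 6.93, 5.22, 2.24 and 1.75 FPKM in the libraries labelled HIF2A cKO, against 0.355, 1.26, 0.774 and 0.672 in WT libraries. The genotypes did not overlap, so HIF2A cKO was higher in 4 of 4 pairs of libraries with the same replicate number, as in any pairing. The means were 4.03 ± 2.47 FPKM in HIF2A cKO and 0.764 ± 0.373 in WT (SD, n = 4 each), and the difference was 1.40 log2 (SE 0.337, limma adjusted p = 0.0130). It was the 1 call among the 5 tested genes, while 23.9% of all tested genes were called at diestrus, 13.8% higher and 10% lower. On the log2(FPKM + 0.1) scale, which compresses low values less, the difference was 2.15. The call ended when the 8 diestrus libraries were fitted alone (limma adjusted p = 0.0552). It stood in those libraries with the replicate number as a block (limma adjusted p = 0.0399), a fit chosen after seeing the data.

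The other 4 genes did not pass at diestrus. The difference was 0.35 log2 for Sprr2f (95% interval -0.41 to 1.11, limma adjusted p = 0.479), 0.54 for Sprr2b (-0.33 to 1.40, adjusted p = 0.336) and 0.48 for Sprr2g (-0.32 to 1.27, adjusted p = 0.358). It was 0.15 for Sprr2d (-0.99 to 1.30, adjusted p = 0.853). Of the 4 pairs with the same replicate number, HIF2A cKO was higher in 4 for Sprr2b, 4 for Sprr2d, 3 for Sprr2f and 2 for Sprr2g. These intervals include changes of more than 1 log2 unit, so they do not show equal levels. WT diestrus libraries varied more than HIF2A cKO diestrus libraries in Sprr2f, with the highest 3.60 times the lowest in WT and 1.78 times in HIF2A cKO.

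At estrus no Sprr gene was called between the genotypes in limma, while 0.105% of all tested genes were called, 0.07% higher and 0.035% lower. Sprr2b came closest: its 26.9, 10.6 and 59.7 FPKM in HIF2A cKO libraries were all above the 9.552, 4.51 and 4.50 FPKM of WT libraries. The difference was 1.98 log2 (95% interval 0.99 to 2.98, unadjusted p = 0.000885, limma adjusted p = 0.205). It passed with library weights (adjusted p = 0.00723) and without HIF2A cKO estrus replicate 2 (adjusted p = 0.0450). Among the 5 tested genes Sprr2b was the 1 with an unadjusted p below 0.05. Sprr2f differed by -0.18 log2 (95% interval -1.05 to 0.70, limma adjusted p = 0.980), Sprr1a by 0.46 (-0.38 to 1.30, adjusted p = 0.888), Sprr2d by -0.05 (-1.38 to 1.27, adjusted p = 0.998) and Sprr2g by -0.49 (-1.41 to 0.43, adjusted p = 0.893).

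Whether the cycle change itself differed between genotypes was tested as an interaction, in which the WT change is subtracted from the HIF2A cKO change. None of the 5 genes passed in limma, while 0.035% of all tested genes did and 0.014% did with a positive and 0.021% with a negative sign, and Sprr2b had an unadjusted p below 0.05 (1.45 log2, unadjusted p = 0.0336, adjusted p = 0.249). The interaction was -0.94 log2 for Sprr1a (95% interval -2.05 to 0.17, adjusted p = 0.355), -0.97 for Sprr2g (-2.19 to 0.25, adjusted p = 0.385) and -0.53 for Sprr2f (-1.69 to 0.63, adjusted p = 0.625). It was -0.21 for Sprr2d (-1.96 to 1.55, adjusted p = 0.918). With library weights the interaction of Sprr1a passed (-1.41 log2, adjusted p = 0.0137).

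The 5 genes below the filter had little or no signal. Sprr2e, between Sprr2d and Sprr2f, was the highest of them and showed no order by stage: it had 1.499, 0.336 and 0.881 FPKM in HIF2A cKO estrus libraries, against 0.259, 0.870, 0.286 and 0.589 in HIF2A cKO diestrus libraries. It had 1.199, 0.289 and 0.255 FPKM in WT estrus libraries, against 0.251, 0.929, 0.432 and 0.394 in WT diestrus libraries. The stages overlapped in both genotypes. Its mean at estrus was 0.905 ± 0.582 FPKM in HIF2A cKO and 0.581 ± 0.535 in WT (SD, n = 3 each). The 250 bases before its start carry the AP-1, octamer and TATA matches also shown for Sprr2f.

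Sprr2a1 and Sprr2a2 have to be read together, since their transcripts share nearly all of their sequence. A further copy, Sprr2a3, shares 61.1% of its stretches of 50 bases with another gene and is not among the deposited symbols. Where its reads were counted is unknown. Sprr2a2 had 0.030, 0.024 and 0.060 FPKM in HIF2A cKO estrus libraries, against 0.192, 0.221 and 0.247 in WT estrus libraries, and the genotypes did not overlap. Sprr2a1 was listed at 0, 0.289 and 0.144 FPKM in those HIF2A cKO libraries and at 0 in the 3 WT libraries. Their sum was 0.030, 0.313 and 0.204 FPKM in HIF2A cKO estrus libraries, against 0.192, 0.221 and 0.247 in WT estrus libraries, and overlapped. At diestrus the sum was at most 0.012 FPKM in the 8 libraries. Without a filter limma called Sprr2a2 lower in HIF2A cKO at estrus (-0.23 log2, adjusted p = 0.00011). A split of shared reads between the copies was not tested.

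Genes that every cell uses, such as Eef1a1, are at 0 in whole groups of this table, so a 0 can be a failed estimate. Sprr2k was listed at 0 in 12 of the 14 libraries and reached 0.303 FPKM in WT diestrus replicate 2. Sprr2h was listed at 0 in 11 and reached 0.102 FPKM in HIF2A cKO diestrus replicate 2. Of the Sprr symbols of the table outside the 10, Sprr1b and Sprr4 were at 0 in all libraries. Sprr2i reached 0.146 FPKM, Sprr2j-ps 0.242 and Sprr3 0.122.

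Because SPRR proteins are substrates of the cornified envelope, its other genes were examined as lists. Of 19 listed envelope proteins outside the family 18 were in the table, and 11 of those were below the filter, among them loricrin (Lor), involucrin (Ivl) and filaggrin (Flg), which averaged at most 0.879, 0.141 and 0.0663 FPKM in any group. Of the 7 tested, 2 rose and none fell at estrus in HIF2A cKO, and 2 rose and 1 fell in WT. Over all tested genes 25.5% rose in HIF2A cKO and 23% in WT, shares near those of the list. Dsp, the desmosomal plaque protein desmoplakin, averaged 27.0 ± 3.02 FPKM at estrus and 15.0 ± 4.65 at diestrus in HIF2A cKO, and 26.5 ± 1.57 at estrus and 11.8 ± 3.33 at diestrus in WT (SD, n = 3 and 4; 1.13 log2 in WT, limma adjusted p = 0.00134). The protease inhibitor Serpinb1a fell in WT (-0.58 log2, limma adjusted p = 0.00533). Between the genotypes at diestrus the cystatin Cstb was higher (0.32 log2, limma adjusted p = 0.0278) and periplakin, Ppl, lower (-0.41 log2, adjusted p = 0.0198) in HIF2A cKO. Over all tested genes 23.9% were called in that comparison, a share near that of the list.

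Of 8 transglutaminase family genes 4 were tested, and 3 were called between stages in each genotype, while 62% of all tested genes were in HIF2A cKO and 57.2% in WT. Without Tgm5 and Tgm1, whose direction the filter fixed, 1 of 2 rose in each genotype. Tgm5, an epidermal transglutaminase, averaged 1.60 ± 0.423 FPKM at estrus and 0.387 ± 0.157 at diestrus in HIF2A cKO, and 1.39 ± 0.157 at estrus and 0.253 ± 0.132 at diestrus in WT (SD, n = 3 and 4). The coagulation factor subunit gene F13a1 rose by 0.67 log2 in WT (limma adjusted p = 0.0448). Tgm1, the keratinocyte transglutaminase, averaged 0.352 ± 0.0665 FPKM at estrus and 1.05 ± 0.340 at diestrus in WT, and Tgm2, the tissue transglutaminase and the most abundant of them, stood at 273 ± 37.9 FPKM at estrus and 235 ± 25.5 at diestrus in WT (limma adjusted p = 0.143). Of 14 S100 genes, most of them neighbours of the Sprr genes in the complex, 11 were tested. In HIF2A cKO 1 of these rose and 6 fell at estrus, while 36.5% of all tested genes fell. In WT none rose and 7 fell, while 34.1% of all tested genes fell. Of the 8 that passed the filter in both stages, 1 rose and 5 fell in HIF2A cKO, and 6 fell in WT. S100a10, the annexin A2 partner, averaged 173 ± 19.0 FPKM at estrus and 503 ± 145 at diestrus in WT (SD, n = 3 and 4; -1.5 log2, limma adjusted p = 3.92e-05), and S100a6 fell as well (-1.2 log2, adjusted p = 0.00171). S100a16 was the 1 S100 gene called between genotypes at diestrus, where 23.9% of all tested genes were called, and it was higher in HIF2A cKO (0.44 log2, limma adjusted p = 0.018).

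Markers of epithelium moved with the Sprr genes. Of 10 uterine epithelial markers 8 rose at estrus in HIF2A cKO and 9 in WT, and none fell, while 25.5% of all tested genes rose in HIF2A cKO and 23% in WT. The ETS factor Elf3 averaged 168 ± 19.8 FPKM at estrus and 29.4 ± 10.6 at diestrus in WT (SD, n = 3 and 4; 2.55 log2, limma adjusted p = 0.00038). The summed level of the 10 markers ran from 1468 to 1661 FPKM in HIF2A cKO estrus and 1153 to 1398 in WT estrus libraries, and from 581 to 1095 in HIF2A cKO diestrus and 488 to 688 in WT diestrus libraries, and no marker was at 0 in all libraries of a group. Divided by this sum in the same library, Sprr2f was 1.76 ± 0.393 at estrus and 0.580 ± 0.176 at diestrus in HIF2A cKO, and 2.42 ± 0.377 at estrus and 0.683 ± 0.275 at diestrus in WT (SD, n = 3 and 4). The stages did not overlap in this ratio either. At diestrus 2 of the 10 markers, Elf3 (1.71 log2, limma adjusted p = 0.0126) and keratin Krt7 (1.17 log2, adjusted p = 0.013), were called higher in HIF2A cKO than in WT, where 13.8% of all tested genes were, a share near that of the list. Sprr1a was 0.208% to 0.684% of the epithelial sum in HIF2A cKO diestrus libraries, against 0.0516% to 0.193% in WT diestrus libraries, with no overlap.

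**Figure D4:**
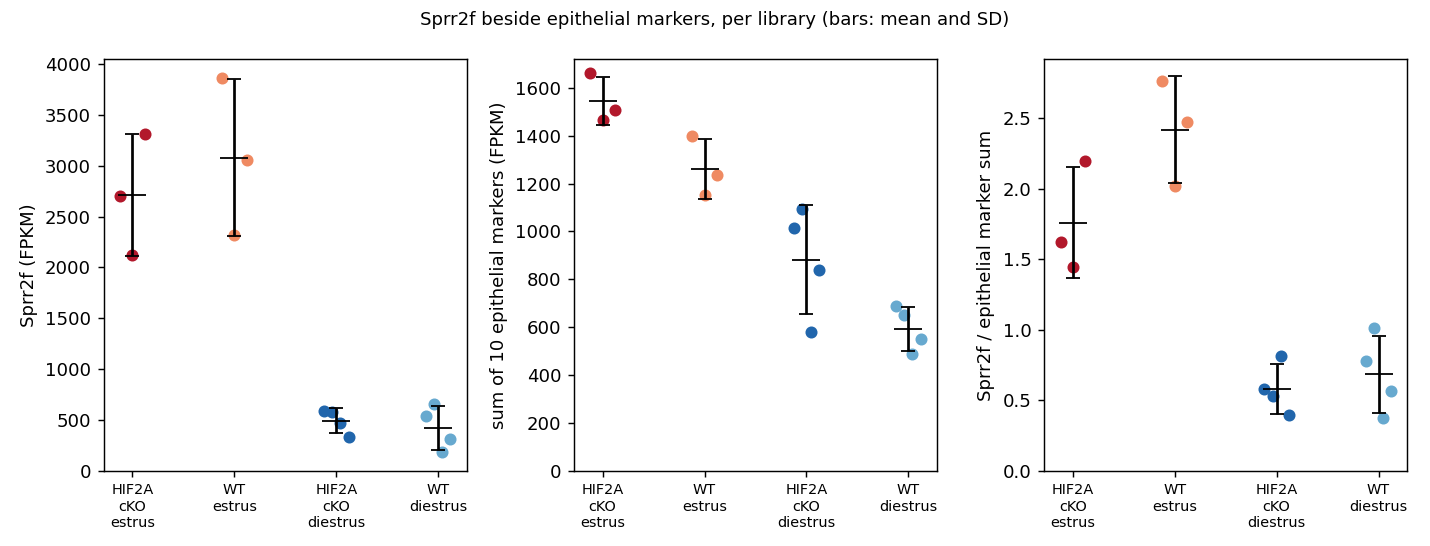
Sprr2f (FPKM), the summed FPKM of 10 epithelial markers and the ratio of these per library, with the mean and SD of each group. The ratio lies between 1.45 and 2.76 in estrus libraries of both genotypes, above the 0.376 to 1.01 of diestrus libraries.

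Markers of the stratified squamous epithelium of vagina and cervix, where Sprr genes are also known, were low. The 13 markers summed to 5.54 to 6.57 FPKM in HIF2A cKO estrus and 5.65 to 7.52 in WT estrus libraries, and to 6.49 to 10.9 in HIF2A cKO diestrus and 5.74 to 7.02 in WT diestrus libraries. Krt6a was at 0 in all libraries, and 4 of the 13 were tested, of which 1 passed the filter in both stages, and it was called in neither genotype. At diestrus Krt5 averaged 1.78 ± 1.22 FPKM in HIF2A cKO and 0.503 ± 0.166 in WT, and Krt15 averaged 1.44 ± 0.275 in HIF2A cKO and 0.915 ± 0.211 in WT (SD, n = 4 each). Both passed the filter mainly through HIF2A cKO diestrus libraries, and their part in the call of Sprr1a was not tested. At estrus Krt15 averaged 0.24 ± 0.115 FPKM in HIF2A cKO and 0.231 ± 0.0535 in WT (SD, n = 3 each).

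The lists that follow are short and were not tested as sets. Over all tested genes 25.5% rose and 36.5% fell at estrus in HIF2A cKO, and 23% rose and 34.1% fell in WT. Between genotypes at diestrus 13.8% were higher and 10% lower in HIF2A cKO. Of 6 gland markers 3 were tested. The gland chemokine Cxcl15 averaged 0.220 ± 0.0719 FPKM at estrus and 22.8 ± 13.3 at diestrus in WT (SD, n = 3 and 4). Of the other two, 1 fell at estrus in each genotype, the gland transcription factor Foxa2 (-1.04 log2 in WT, limma adjusted p = 0.0308). At diestrus 2 of the 3, Cxcl15 and Foxa2, were lower in HIF2A cKO than in WT (-2.06 and -1.61 log2, limma adjusted p = 0.0249 and 0.00852). The other tested marker, Sox9, had a higher mean in HIF2A cKO and was not called (0.60 log2, limma adjusted p = 0.150). Of 5 stromal markers 1 rose and 3 fell at estrus in HIF2A cKO, and 4 fell in WT, led by the proteoglycan Vcan (-2.41 log2, limma adjusted p = 1.30e-07) and the transcription factor Hand2 (-1.08 log2, adjusted p = 0.00446). Between genotypes at diestrus Vcan was higher (0.47 log2, limma adjusted p = 0.0284) and Pdgfra lower (-0.49 log2, adjusted p = 0.0295) in HIF2A cKO. Of 5 myometrial markers 3 fell at estrus in each genotype, among them the contractile genes Cnn1 and Actg2 (-1.21 and -1.14 log2 in WT, limma adjusted p = 5.25e-05 and 0.00139). Of 3 oviduct markers 2 were tested, and Pax8 rose in WT (0.54 log2, limma adjusted p = 0.00661). The other, Ovgp1, went the other way in WT, with 0.771 ± 0.128 FPKM at estrus and 3.61 ± 2.87 at diestrus (SD, n = 3 and 4). Of 5 neutrophil markers 4 were in the table and 3 were tested, none of which passed the filter in both stages. The receptor gene Csf3r averaged 2.29 ± 0.157 FPKM at estrus and 1.29 ± 0.584 at diestrus in WT (SD, n = 3 and 4). Neutrophil markers summed to 3.02 to 6.64 FPKM in HIF2A cKO estrus and 3.85 to 4.60 in WT estrus libraries, and to 1.70 to 2.63 in HIF2A cKO diestrus and 2.84 to 10.034 in WT diestrus libraries. Oviduct markers summed to 16.9 to 21.6 FPKM in HIF2A cKO estrus and 20.3 to 23.4 in WT estrus libraries, and to 14.2 to 23.7 in HIF2A cKO diestrus and 12.3 to 22.7 in WT diestrus libraries. Pax8 made up most of these sums, with group means of 13.6 to 19.8 FPKM, so they mainly follow that gene.

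The genes outside the family with the most similar profile were found by the root mean square difference of centred log2(FPKM + 1) values from the mean of the 5 tested Sprr genes over the 14 libraries. The 5 nearest were Plet1, 2210407C18Rik, Ankrd37, Slc34a2 and Slc5a1, at 0.31 to 0.34 log2. The Sprr genes themselves lay at 0.41 (Sprr2f) to 1.29 (Sprr2g) from their mean. Plet1, an epithelial surface protein, averaged 682 ± 111 FPKM at estrus and 160 ± 42.2 at diestrus in HIF2A cKO, and 428 ± 35.3 at estrus and 98.5 ± 34.6 at diestrus in WT (SD, n = 3 and 4). Slc34a2, a sodium-phosphate cotransporter, averaged 11.9 ± 3.22 FPKM at estrus and 1.09 ± 0.51 at diestrus in HIF2A cKO, and Slc5a1, the sodium-glucose cotransporter, 9.546 ± 1.70 at estrus and 1.27 ± 0.751 at diestrus in HIF2A cKO. Ankrd37, known as a HIF target, averaged 8.36 ± 1.63 FPKM at estrus and 0.851 ± 0.167 at diestrus in WT. In HIF2A cKO Ankrd37 averaged 9.19 ± 1.51 FPKM at estrus and 1.85 ± 0.977 at diestrus, so its mean was not lower under that label. A part of HIF in these profiles was not tested.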

How the data were processed

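RNA sequencing of mouse uterus gave 14 libraries in 4 groups, taken from the labels. Per the labels' protocols, RNA was purified on columns with DNase, and an Illumina TruSeq kit was used. The authors deposited FPKM values per gene symbol, 1 column per library. TopHat2 2.0.4, Cufflinks 2.0.2 and the build mm10 are named, without roles, per the submitters' processing notes. No source used here gives the annotation or any further scaling. Depth is known only relative to the shallowest library: the steps of low FPKM values put the others at up to 1.89 times its depth (70 of 91 pairs of libraries, tolerance 0.02 log2). Counting errors therefore cannot be given.

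The limma package (3.58.1, R 4.3.3) fitted log2(FPKM + 1) with 1 mean per group, a mean-variance trend and Benjamini-Hochberg adjustment. The fit took 14278 genes that reached 1 FPKM in 3 or more libraries. It left out 7 genes, none of them Sprr, that were listed at 0 throughout 1 group while averaging 50 FPKM or more elsewhere. Alternatives were other pseudocounts, filters and scalings, library weights, fits of the compared groups alone, a replicate block and leaving out each library. The fit was tested on simulated data. The Sprr genes, the lists and the settings were chosen with earlier results of these data known. All members were named, with the 5 nearest profiles and, per list, up to 2 called genes with the largest change in WT between stages and 2 between genotypes at diestrus. The values of 1 gene that this rule names are not reported here. Lor, Ivl, Flg, Tgm1, Tgm2, Sox9 and Ovgp1 were named after their values were seen. Deviations of the 4 diestrus pairs with the same replicate number correlated at 0.321, 0.115, 0.622 and 0.217, and all but replicate 2 matched their own number best. On these same data the numbers were taken to pair the diestrus libraries in an alternative fit, although no label says what a number marks. The main fit did not pair them. At estrus the correlations were 0.0805, 0.0958 and -0.0475, and replicates 1 and 2 matched their own number best. Between stages no replicate did. Promoter sequences and gene positions are from RefSeq, transcripts from GENCODE M21.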

Additional observations from a re-analysis of the deposited data

Results flagged for a closer look

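Among the 17 groups of 4 libraries with any spread, 3 had a library far from the others. Chance alone flags about 1 in 20 groups of continuous values, a rate that does not apply to Sprr2h and Sprr2k, where 1 value above 0 beside 3 at 0 is flagged whatever its size. Sprr2b stood at 0.476 FPKM in HIF2A cKO diestrus replicate 4, below the 1.32 to 1.45 of the other 3 libraries of that group. That library also had the highest Rn45s value. Sprr2h stood at 0.102 FPKM in HIF2A cKO diestrus replicate 2, where the other 3 libraries were at 0. Sprr2k stood at 0.303 FPKM in WT diestrus replicate 2, where the other 3 were at 0.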

How the results depend on the processing

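Between stages 4 Sprr genes rose in each genotype under each setting with the filter, and with each library left out (4 to 4). Sprr2d was 1 of these 4, and its direction was fixed by the filter. Without a filter 6 rose in HIF2A cKO and 5 in WT, since low copies were then tested too, and Sprr2g was added as a lower call in HIF2A cKO with library weights and in the HIF2A cKO libraries alone. The count at diestrus between genotypes was 1 and became 0 in the diestrus libraries alone (1 to 1 with a library left out). At estrus it was 0 and became 1 without a filter (Sprr2a2, lower), 1 with library weights (Sprr2b, higher), and 0 to 1 with a library left out. The interaction count was 0 and became 1 without a filter (Sprr2a2) and 1 with library weights (Sprr1a), and stayed at 0 to 0 with a library left out. With library weights the uncalled differences of Sprr2d changed sign, to -0.060 at diestrus, 0.054 at estrus and 0.11 in the interaction. With a library left out, uncalled differences that changed sign ran from -0.78 to 0.55 for Sprr2d at estrus, -0.93 to 0.39 for its interaction, -0.37 to 0.0015 for Sprr2f at estrus and -0.071 to 0.61 for Sprr2g between stages in WT. The cause was not tested. Over all libraries the replicate block changed no call of a Sprr gene (Sprr1a at diestrus 1.40, adjusted p = 0.0115). In the diestrus libraries alone Sprr1a was called with the block (adjusted p = 0.0399) and not without it (0.0552). The block in those libraries was chosen after seeing the data, as were a pseudocount of 0.01 and leaving out both libraries highest in Rn45s. With the block the interaction counted 462 genes over all genes. Of 299 values of single genes under settings other than leaving out a library, 291 kept their direction and side of the threshold. The count over all genes at diestrus between genotypes, 3410, was 430 in those libraries alone, 7885 with library weights and 1473 to 5013 with a library left out. At estrus 15 genes became 0 to 1331, and in the interaction 5 became 0 to 5225 over these settings. The summed Sprr2a copies stayed below the filter and gave no test. Sprr2a1, Sprr2a2, Sprr2e, Sprr2h and Sprr2k were too low to test, and what depth adds to this is unknown.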
